A study of Drosophila melanogaster with 18 samples.

Results

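The 10 genes described here encode structural proteins of the insect eggshell and were read in whole adult males of *Drosophila melanogaster*. They are 4 vitelline membrane genes (Vm26Aa, Vm26Ac, Vm32E, Vm34Ca) and 6 chorion genes (Cp15, Cp16, Cp18, Cp19, Cp36, Cp38), chosen from a list of names after it was known that they varied between these arrays. Each has 1 probe set of its own, so that they make up 10 of 11981 genes with such a probe set and 10 of 18769 probe sets tested. The 18 Affymetrix Drosophila Genome 2.0 arrays fall into 3 treatments with 3 populations each and 2 arrays per population. All males descend from the LHm stock, were 14 days from egg (4 days adult) and were used whole. MLX males came from populations in which females with a compound double X (DX) forced the X to pass from father to son over many generations. CDX males were sons of a Control father and a DX female and thus had a paternal X for a single generation. Control males had the usual maternal X. Males of MLX and CDX have DX mothers and a maternal Y in common, while those of Control do not. The paper states that the Y of CDX males had been able to evolve in MLX populations. CDX and Control males thus differ in mother and in the passage of both sex chromosomes together. The labels name a single male for each array, but the methods describe RNA of pooled males, and this was not resolved here. Arrays are called by population and number, so that MLX 2-2 is the array 2 of MLX population 2.

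The eggshell is laid down around the oocyte by the follicle cells of the ovary. Vitelline membrane proteins are secreted first, and the chorion proteins follow in the last stages of oogenesis, when the chorion genes have been amplified in the follicle cells. The chorion genes lie in a pair of clusters, and the cluster on the X is switched on before most genes of the cluster on chromosome 3. In the RefSeq annotation Cp36 and Cp38 are neighbours on the X, Cp18, Cp15, Cp19 and Cp16 follow each other on chromosome arm 3L, and the 4 vitelline membrane genes lie on 2L. Males have no follicle cells of this kind, and these genes have no known function in the male.

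The values are log2 expression after RMA, from 2.64 to 15.33 over all probe sets, with array medians between 6.94 and 7.06. Male markers were bright in every array, and the mean level of 12 accessory gland genes lay between 12.87 and 13.10 in MLX, 12.71 and 13.14 in CDX and 12.96 and 13.18 in Control arrays. That of 16 testis genes lay between 10.42 and 10.68, 10.42 and 10.61, and 10.39 and 10.59 in MLX, CDX and Control arrays. Bright male markers cannot show whether a small share of female tissue was present. However, 6 arrays stood apart from the other 12 in the eggshell genes, namely MLX 2-2, MLX 3-2, CDX 1-1, CDX 2-1, CDX 3-1 and Control 2-1. They come from 6 different populations, and all 3 CDX populations, 2 MLX populations and 1 Control population held such an array. For 8 of the 10 genes these were exactly the 6 highest arrays, the exceptions being Vm26Ac and Cp16. This grouping was read from the values and is no group of the study, and results below are given with and without these arrays. The labels give no slide or scan date, and a batch of hybridisation was not tested.

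Among the chorion genes of the X, Cp36 (probe set 1636228_at), a major protein of the early chorion, varied most. Its log2 expression in MLX arrays was 6.01 and 5.63 in population 1, 5.85 and 9.49 in population 2, and 5.54 and 8.12 in population 3. In CDX arrays it was 8.88 and 6.68 in population 1, 8.85 and 5.44 in population 2, and 7.80 and 5.95 in population 3. In Control arrays it was 5.22 and 5.4 in population 1, 7.88 and 5.12 in population 2, and 5.57 and 5.68 in population 3. The 3 treatments thus overlapped, and each of them held arrays near the bottom of the range. The arrays of MLX population 2 differed by 3.64, a 12.5-fold difference, and those of Control population 3 by 0.10. Among the 12 arrays outside the 6, the highest was CDX 1-2, at 6.68, whereas the lowest of the 6 was CDX 3-1, at 7.80.

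Cp38 (1626103_at), its neighbour and also a chorion protein, followed the same arrays. It had a lowest, median and highest value of 5.67, 5.90 and 8.78 in MLX, 5.67, 6.60 and 8.18 in CDX, and 5.19, 5.69 and 7.25 in Control arrays. The difference between the arrays of a population was largest in MLX population 2, at 2.96, and smallest in Control population 3, at 0.05. In Control population 1, which held none of the 6 arrays, Cp38 nevertheless differed by 0.73, the largest such difference of any of the 10 genes in the 3 populations without one.

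The cluster on chromosome 3 encodes proteins of the later chorion. Cp15 (1623044_at) had 6.33, 7.0 and 9.64 as lowest, median and highest value in MLX arrays, 7.06, 8.16 and 9.53 in CDX arrays, and 6.78, 7.10 and 8.78 in Control arrays. Cp19 (1634091_at) had 5.12, 5.49 and 8.0 in MLX, 5.34, 5.98 and 7.61 in CDX, and 5.16, 5.21 and 7.01 in Control arrays. In both genes the 6 arrays lay above all others, the gap being between 8.44 (MLX 3-2) and 7.55 (CDX 1-2) for Cp15 and between 6.28 (CDX 3-1) and 5.67 (CDX 1-2) for Cp19. Cp18 (1631556_at) ranged over 1.65, with 6.25, 6.59 and 7.90 in MLX, 6.29, 6.94 and 7.84 in CDX, and 6.26, 6.39 and 7.13 in Control arrays. Cp16 (1629380_at) had 5.02, 5.18 and 6.85 in MLX, 5.04, 5.57 and 6.62 in CDX, and 4.97, 5.07 and 5.92 in Control arrays. Here the separation broke down, since MLX 3-2, at 5.38, stood below CDX 1-2, at 5.43.

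Of the vitelline membrane genes, Vm26Aa (1635847_at) had 6.49 and 6.37, 6.26 and 8.23, and 6.33 and 7.64 in MLX populations 1, 2 and 3. It had 7.56 and 6.78, 8.07 and 6.43, and 7.36 and 6.75 in the CDX populations, and 6.34 and 6.00, 7.84 and 6.23, and 6.36 and 6.54 in the Control populations. The arrays with high Cp36 were thus the arrays with high Vm26Aa. Vm34Ca (1635503_at) had 5.75, 6.16 and 7.53 as lowest, median and highest value in MLX, 6.00, 6.65 and 7.30 in CDX, and 5.76, 5.83 and 7.02 in Control arrays. Vm32E (1624061_at), whose protein is known to reach the chorion as well, was dimmer, with 3.69, 3.82 and 5.06 in MLX, 3.58, 3.96 and 4.45 in CDX, and 3.71, 3.77 and 4.10 in Control arrays. In Vm32E only MLX 2-2 went above 4.45. Vm26Ac (1625398_at) did not follow the others, with 4.27, 4.66 and 4.82 in MLX, 4.52, 4.77 and 5.0 in CDX, and 4.32, 4.65 and 4.97 in Control arrays. Its second highest array was Control 1-1, at 4.97, while MLX 3-2 was among its lowest, at 4.36. Vm26Ac was dim too, with a mean of 4.66 and a range of only 0.73, although Vm32E, with a mean of 3.96, did follow. Whether low signal sets Vm26Ac apart was not tested. The Pearson correlation of each gene with the mean of the other 9 over the 18 arrays was 0.38 for Vm26Ac and between 0.92 and 0.99 for the rest, a description of genes that share the same arrays.

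**Figure D1:**
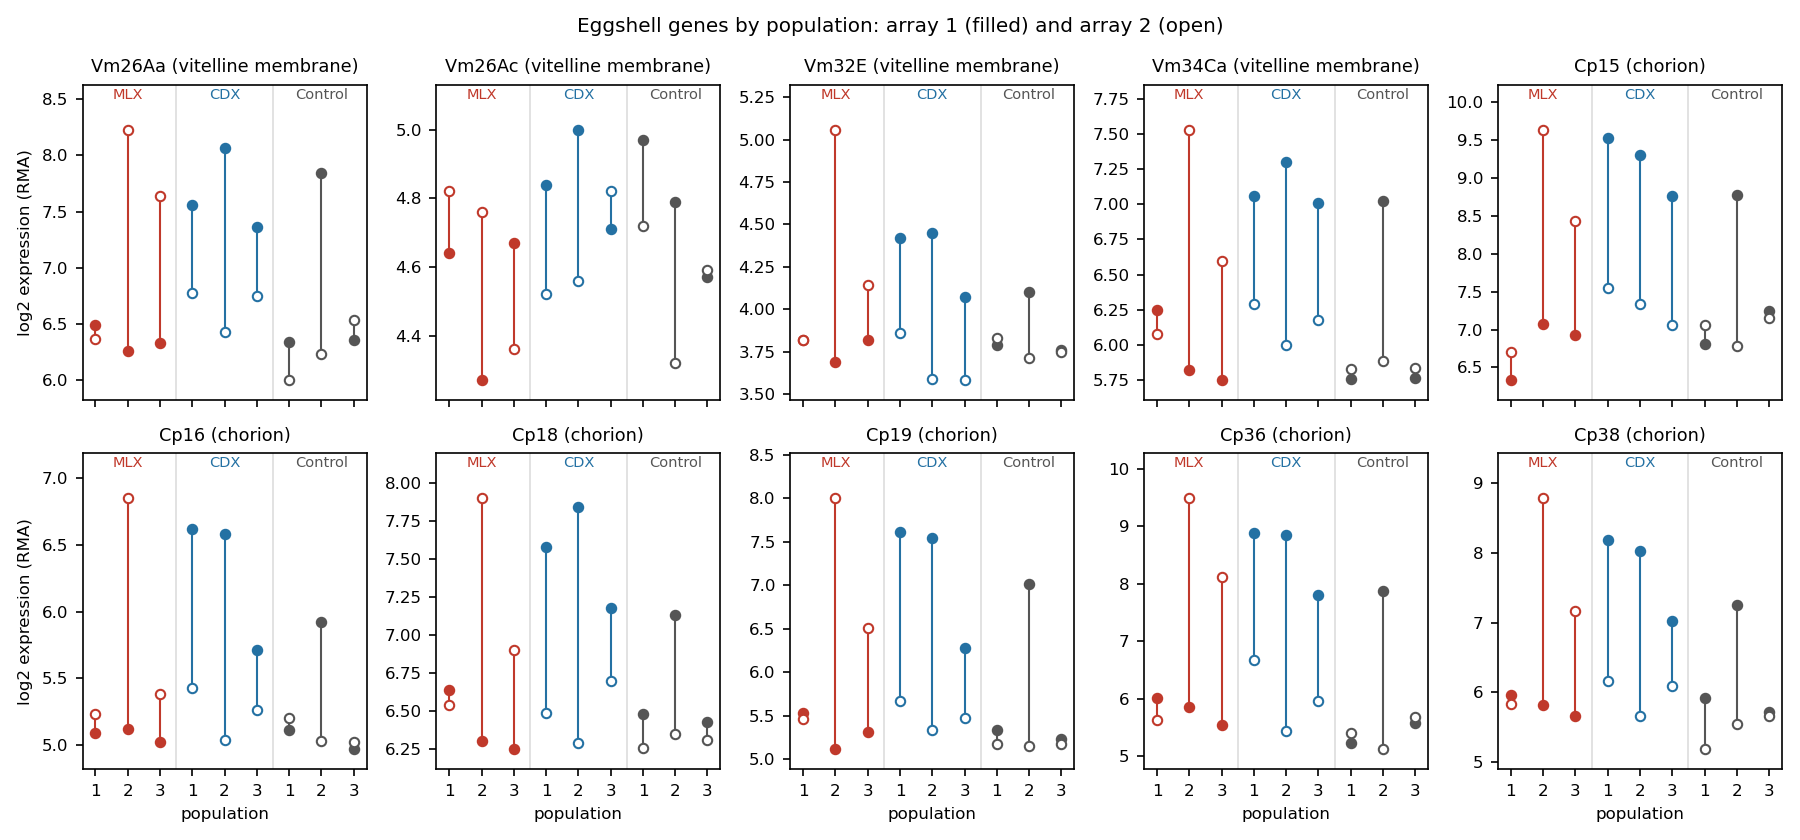
Log2 expression (RMA) of the 10 eggshell genes in the 9 populations, with array 1 filled and array 2 open and a line joining the arrays of a population. In Cp36 the arrays of MLX population 2 stand at 5.85 and 9.49, and those of Control population 3 at 5.57 and 5.68.

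Between the 2 arrays of a population the eggshell genes differed more than most transcripts. The choice of the genes used these values, so that they are given as a description. The median over the 9 populations of the absolute difference between arrays was 2.21 for Cp36, 1.70 for Cp15, 1.49 for Cp38 and 1.21 for Cp19. It was 0.84 for Vm34Ca, 0.77 for Vm26Aa, 0.65 for Cp18, 0.45 for Cp16, 0.39 for Vm32E and 0.32 for Vm26Ac. Even the last of these exceeded 98.8% of all probe sets. Within the populations all probe sets had a median difference between 0.084 and 0.127, and between 16 and 58 of them differed by more than 1. The pooled standard deviation within treatments was 1.41 for Cp36, and only 4 probe sets had a larger one, against a median of 0.12 over all probe sets. Of the sum of squares of each eggshell gene, a median of 66.5% lay between arrays of a population, 17.4% between populations of a treatment and 15.3% between treatments. The medians over all probe sets were 43.9%, 43.4% and 8.92%. The design itself gives these levels 52.9%, 35.3% and 11.8% of the degrees of freedom.

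The direction of these differences was shared by the genes. In MLX population 2, CDX population 1, CDX population 2 and Control population 2, 10 of 10 genes were higher in the same array, and in MLX population 3 and CDX population 3 it was 9 of 10, with Vm26Ac on the other side. In the other 3 populations 6 (MLX population 1), 5 (Control population 1) and 5 (Control population 3) of the 10 genes were higher in the array with the higher mean. The higher array was number 2 in both MLX populations and number 1 in the 3 CDX populations and the Control population. Of all probe sets, 45.4% and 45.2% were higher in the same array in MLX populations 2 and 3, 50.6%, 45.0% and 49.2% in CDX populations 1, 2 and 3, and 45.8% in Control population 2.

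Vitelline membrane and chorion genes were compared by the mean difference between the arrays of each population, which says nothing of their relative abundance. RMA also compresses differences of dim probe sets, which limits a comparison of the size of the differences. In MLX population 2 the mean difference was 1.38 for the vitelline membrane genes and 2.56 for the chorion genes, and in MLX population 3 it was 0.54 and 1.30. In the CDX populations 1, 2 and 3 it was 0.61 and 1.74, 1.06 and 2.17, and 0.45 and 1.04, and in Control population 2 it was 0.90 and 1.67. The mean of the chorion genes was larger in each of these 6 populations, by a factor from 1.85 (MLX population 2 and Control population 2) to 2.86 (CDX population 1). Gene by gene the classes overlapped, and the vitelline membrane mean includes the dim genes Vm26Ac, which did not follow the others, and Vm32E. The difference of Vm26Aa exceeded those of both Cp16 and Cp18 in 5 of the 6 populations, for example with 1.96 against 1.73 and 1.60 in MLX population 2 and 1.61 against 0.89 and 0.78 in Control population 2. Within the chorion, the genes on the X had 3.30, 2.04, 2.11, 2.88, 1.39 and 2.23 in the same populations, against 2.19, 0.93, 1.55, 1.82, 0.86 and 1.38 for those on chromosome 3. The yolk protein genes Yp1, Yp2 and Yp3, which are not eggshell genes but are expressed in follicle cells and the female fat body, had 2.87, 1.92, 1.38, 3.03, 1.77 and 2.54. CDX population 1 was the only one of the 6 in which the yolk genes differed less than the chorion genes of both clusters. In Control population 3, without a high array, the yolk genes differed by 0.71 while the vitelline membrane genes differed by 0.07 and the chorion genes by -0.03.

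**Figure D2:**
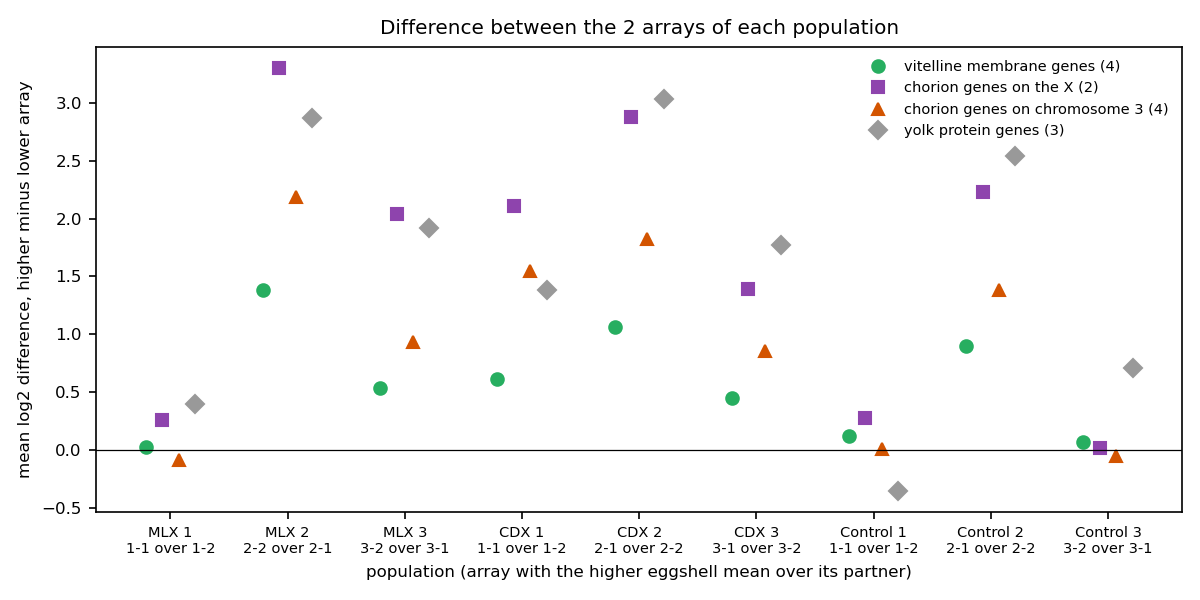
Mean log2 difference between the arrays of each population, array with the higher eggshell mean minus its partner, for 4 vitelline membrane genes, 2 chorion genes on the X, 4 chorion genes on chromosome 3 and 3 yolk protein genes. In 6 populations all 4 means lie above 0.4, whereas those of MLX population 1, Control population 1 and Control population 3 lie between -0.35 and 0.71.

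The order of the high arrays differed from gene to gene, within as well as between the early and late genes. On a scale from 0 (lowest array of a gene) to 100 (highest), MLX 2-2 was at 100 for 9 of the genes and at 67.5 for Vm26Ac. CDX 1-1 reached 69.8, 56.6, 73.7 and 77.9 for Vm26Aa, Vm32E, Vm34Ca and Vm26Ac, while its chorion genes lay between 80.4 (Cp18) and 96.6 (Cp15). Thus all 6 chorion genes stood higher on their scale than the 4 vitelline membrane genes in that array. In CDX 2-1 Vm26Aa was at 92.7 and Vm34Ca at 87.0, within the range of the chorion genes from 79.0 (Cp38) to 96.4 (Cp18), while Vm32E was at 58.8 and Vm26Ac at 100. In Control 2-1 Vm26Aa was the highest of the 10 genes on this scale, at 82.5, and Vm32E was the lowest, at 35.1, with Cp16 at 50.5. MLX 3-2 had Vm26Aa at 73.6 and Cp36 at 68.6, but Cp16 at 21.6 and Vm26Ac at 11.7. As each of these is a single array, the differences in order have no replicate of their own. Over the 18 arrays the mean departure of the vitelline membrane genes and that of the chorion genes had a Pearson r of 0.981 and a Spearman rho of 0.911. This value describes arrays in separate clusters, and it was 0.769 (rho 0.706) among the 12 arrays without the 6 and 0.911 (rho 0.943) among the 6. Without the 2 arrays farthest from the median (CDX 1-1 and MLX 2-2) it was 0.981. No p is given, as the genes were chosen on these arrays.

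**Figure D3:**
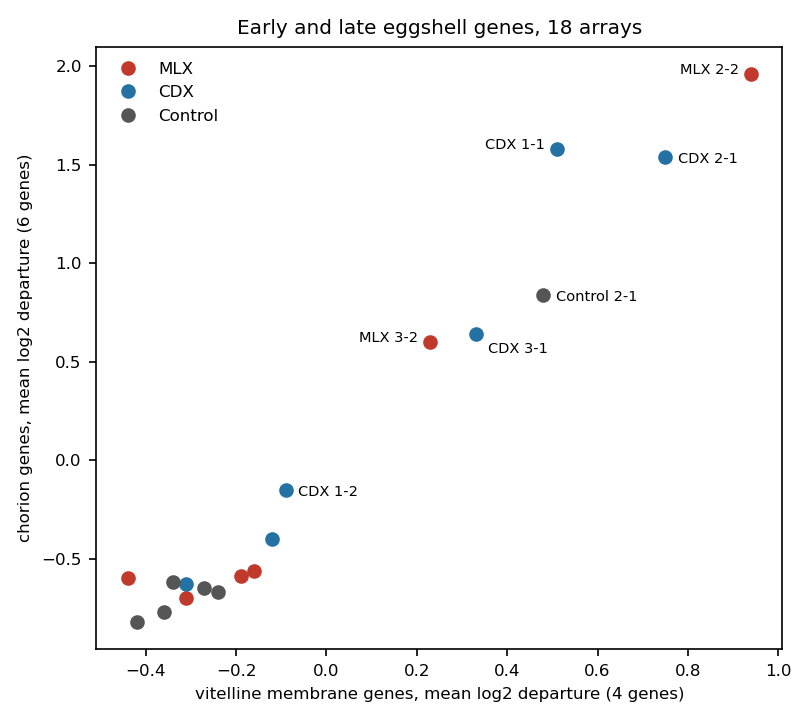
Mean log2 departure of 6 chorion genes (vertical) against that of 4 vitelline membrane genes (horizontal), each gene taken from its own mean over the 18 arrays, with a point per array coloured by treatment. The 6 high arrays, which are labelled together with CDX 1-2, lie apart at the upper right, and CDX 1-1, at 0.51 and 1.58, lies above the line of the others.

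Between treatments, the eggshell genes tended to be higher in CDX than in Control males, but no difference passed the test. Cp36 had a mean of 7.27 ± 1.47 in CDX and 5.81 ± 1.03 in Control males (SD, n = 6 arrays each), a difference of 1.45 (standard error 0.84). Cp38 differed by 0.98 (standard error 0.61), Cp15 by 0.95 (0.62) and Vm34Ca by 0.62 (0.34). All 10 genes were higher in CDX, by 0.08 (Vm26Ac) to 1.45, with a median of 0.61 against 0.001 over all probe sets, where 50.7% of probe sets were higher. In limma with population as a random block, 0 of the 10 passed an adjusted p under 0.05 (adjusted p = 0.9998 for each), as was so for 0% of all probe sets. At an unadjusted p under 0.05, 0 of the 10 passed against 2.98% of all probe sets, the lowest being 0.0855 for Vm34Ca. The 3 population means of CDX lay above the 3 of Control for 7 of the genes, against 8.25% of probe sets with means that do not overlap in either direction. The exceptions were Vm26Ac, Vm32E and Cp19. As these genes move together in the same arrays, the 7 are not independent of each other. When the means of populations were fitted without the block, 8 of the 10 had an unadjusted p under 0.05, against 2.87% of all probe sets, and 0 an adjusted one. These 8 are not independent of each other either. The standard error of Cp36 was 0.44 in that fit, against 0.84 with the block. In these genes populations held a median of 17.4% of the sum of squares on 35.3% of the degrees of freedom. Arrays of a population held 66.5% on 52.9%. Population means thus lay closer together than the spread between arrays would give, and the fit to means used only the former. With arrays taken as independent, 1 of the 10 had an unadjusted p under 0.05, against 896 of 18769 probe sets. The unadjusted count thus depended on the model.

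In MLX against Control males 9 of the 10 genes were higher in MLX, with differences from -0.08 (Vm26Ac) to 0.96 (Cp36, standard error 0.84) and a median of 0.29. Cp36 had a mean of 6.77 ± 1.64 in MLX and 5.81 ± 1.03 in Control males (SD, n = 6 arrays each). Here 51.3% of all probe sets were higher in MLX. Again 0 of 10 genes passed in limma (adjusted p = 0.9997 for each), with 0 at an unadjusted p under 0.05 against 4.19% of all probe sets. The population means overlapped for all 10 genes, and 8.51% of probe sets had means that do not overlap. In MLX against CDX males 9 of the 10 were lower in MLX, from -0.74 (Cp15, standard error 0.62) to 0.06 (Vm32E), with a median of -0.31, while 51.0% of probe sets were higher in MLX. There too 0 of the 10 passed (adjusted p = 0.9999), with 0 at an unadjusted p under 0.05 against 2.61% of probe sets. The population means of MLX and CDX overlapped for all 10 genes, while 6.14% of probe sets had means that do not overlap. The mean difference of the vitelline membrane genes minus that of the chorion genes was -0.26 for MLX minus Control, -0.51 for CDX minus Control and 0.24 for MLX minus CDX. The values with MLX moved when 1 population was left out. MLX minus Control was -0.47 without MLX population 1 and -0.05 without MLX population 2. MLX minus CDX was 0.04 without MLX population 1, 0.46 without MLX population 2 and 0.12 without CDX population 1.

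**Figure D4:**
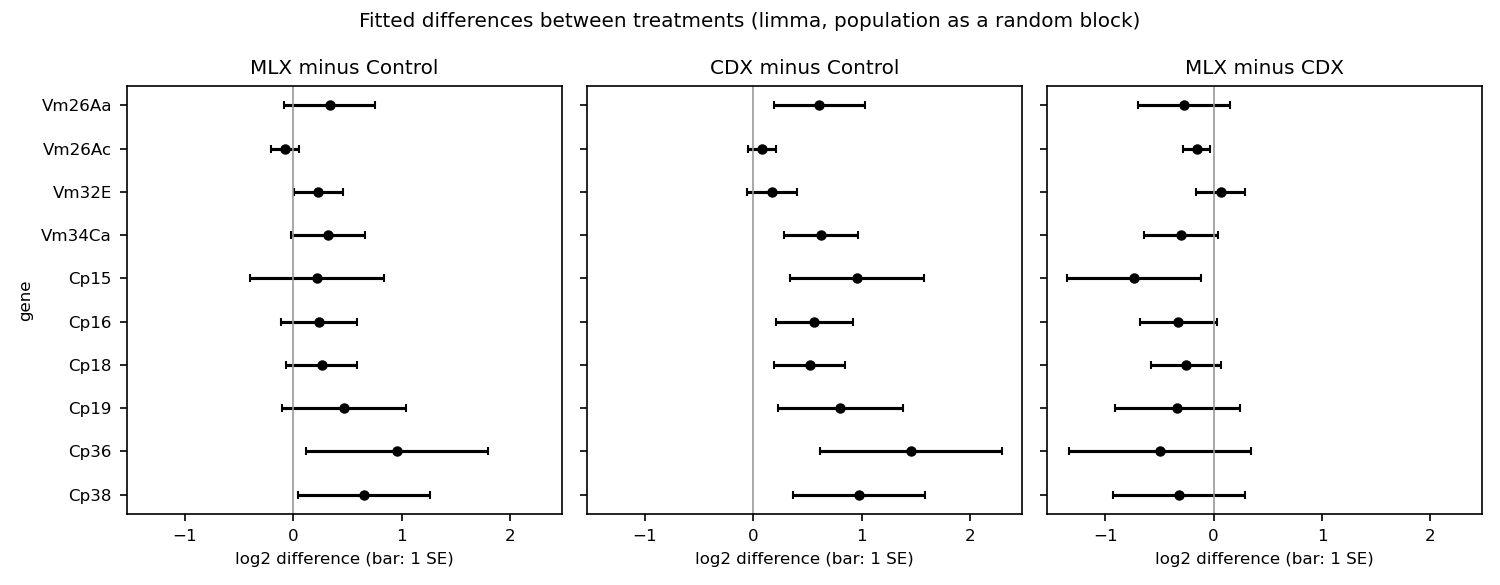
Fitted log2 differences of the 10 genes for MLX minus Control, CDX minus Control and MLX minus CDX, with bars of 1 standard error. In CDX minus Control all 10 points lie above 0, from 0.08 (Vm26Ac) to 1.45 (Cp36), and none of the 30 differences passed the test.

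The treatment differences shrank without the 6 arrays, a setting chosen after the values were seen. These arrays were picked as the highest in these genes and lie unevenly over the treatments. Smaller differences thus follow from the choice, and the values and p-values of this fit are a description and no test. The median over the 10 genes became 0.30 for CDX minus Control, 0.06 for MLX minus Control and -0.16 for MLX minus CDX. For CDX minus Control 9 of the 10 were still higher in CDX, and 5 had an unadjusted p under 0.05, against 3.07% of all probe sets, while 0 had an adjusted one, with 3 CDX, 4 MLX and 5 Control arrays in that fit. Of the CDX arrays that remained, CDX 1-2 was the highest array outside the 6 for 8 genes, which included Cp36 and Vm26Aa. With RNA of whole males, more cells that express a gene and more RNA per cell cannot be told apart.

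Other genes of the eggshell varied with the same arrays in part. Of 19 further eggshell genes listed, 12 were measured by a probe set of their own, and 6 of them had a Pearson r above 0.7 with the mean of the 10 genes, against 0.267% of 11971 named genes. Cp7Fc, the neighbour of Cp36 in the X cluster, had 5.51 in MLX 2-2 and 5.02 in CDX 1-1, and no more than 4.44 in the 12 arrays outside the 6. Pxt, a peroxidase that hardens the eggshell, yellow-g, yellow-g2, dec and Femcoat were the others. The remaining 6 included tsl, which acts at the poles of the egg and ranged over only 0.26, and ndl, a protease of the perivitelline space that ranged over 0.47. Neither these nor any other probe set passed an adjusted p under 0.05 in any of the 3 comparisons of the limma fit. The paper fitted population as a random factor within treatment and did report transcripts that differed between treatments at a false discovery rate of 0.05. The reason for the unlike counts was not tested. Of 12 measured genes of chorion gene amplification and follicle cell regulation, most of which are expressed in many cells, 1 had an r above 0.7, that of Orc1, a subunit of the origin recognition complex, and the range over arrays went from 0.17 (Dp) to 0.65 (br).

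The 10 named genes most like the mean of the eggshell genes over the 18 arrays were dhd, Yp3, Cp7Fc, Yp1, Yp2, osk, yellow-g, mtrm, CycB and CG14545, with r from 0.98 to 0.89. For all of them the 6 highest arrays were the same 6. This follows largely from their choice, since the mean they were matched to is itself highest in these arrays. The first, dhd, a thioredoxin of the female germline, had a log2 expression of 8.86 in MLX 2-2 and 7.88 in MLX 3-2, of 8.21, 8.74 and 7.82 in CDX 1-1, CDX 2-1 and CDX 3-1, and of 8.20 in Control 2-1. In the other 12 arrays dhd lay between 6.38 and 7.14. Yp1 had 9.19 and 8.0 in MLX 2-2 and MLX 3-2, 8.5, 8.84 and 8.14 in the 3 CDX arrays and 8.62 in Control 2-1, and 4.82 to 6.75 in the other 12. The localized determinant osk had 5.27 in MLX 2-2 and 4.64 in Control 2-1, and the oocyte gene mtrm, an inhibitor of Polo kinase, had 6.17 and 5.85. The 3 yolk genes had a mean departure of 1.36, 1.98 and 1.16 in CDX 1-1, CDX 2-1 and CDX 3-1 and of 1.66 in Control 2-1, and the chorion genes one of 1.58, 1.54 and 0.64 in these CDX arrays and of 0.84 in Control 2-1. Control 2-1 thus lay between CDX arrays in both.

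Markers of other tissues were read in the same arrays. Of 18 measured genes of the ovarian germline, 5 had an r above 0.7, those of osk, nanos, otu, gnu and orb. Others had a negative r, the lowest being -0.48 for grk and -0.28 for vas. The probe set of vas was dim in every array, at 3.63 to 3.92, so that its r says little. The mean level of that list was between 6.60 and 6.71 in the 6 arrays and between 6.39 and 6.50 in the other 12, so that they did not overlap. Several of its genes are also expressed in the testis, and exu was at 12.24 in MLX 2-2 and 12.23 in MLX 2-1, while vas was at 3.76 and 3.68. In that list gus had the smallest range, 0.21, and osk the largest, 1.85, followed by nanos (1.25) and gnu (1.18). The separation of the list means thus rests mostly on a few genes. Of 4 genes listed for the female sperm storage organs 0 had such an r, and their mean level overlapped, at 6.92 to 7.15 in the 6 arrays and 6.95 to 7.08 in the others. Among them Send1 had between 3.10 and 3.51 in all arrays, with an r of 0.65, while the others had r from 0.01 to 0.04. Spn28F was bright in every array, at 12.78 to 13.38, and had the largest range, 0.60, while Hr39 had the smallest, 0.36. Spn28F lay near the level of the accessory gland list. Like Acp26Aa (12.82 and 12.93), it was lowest in CDX 2-1 and CDX 2-2, at 12.81 and 12.78. In these males Spn28F is thus no marker of female tissue. The list mean thus rests much on Spn28F, and the overlap of that mean says little of the dimmer genes. None of 12 accessory gland genes, with ranges from 0.30 (Acp98AB) to 1.19 (Acp76A), and none of 16 testis genes, from 0.19 (Mst84Dc) to 0.79 (can), had an r above 0.7. The level of the accessory gland list was 12.71 to 13.10 in the 6 arrays and 12.74 to 13.18 in the others, and that of the testis list 10.42 to 10.59 and 10.39 to 10.68. The signal of the control transcripts at the 3' end minus that at the 5' end, a measure of RNA quality, lay between 1.36 and 1.58 in the 6 arrays and between 1.19 and 1.62 in the others. The part of female germline and yolk transcripts in the eggshell values was not tested.

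**Figure D5:**
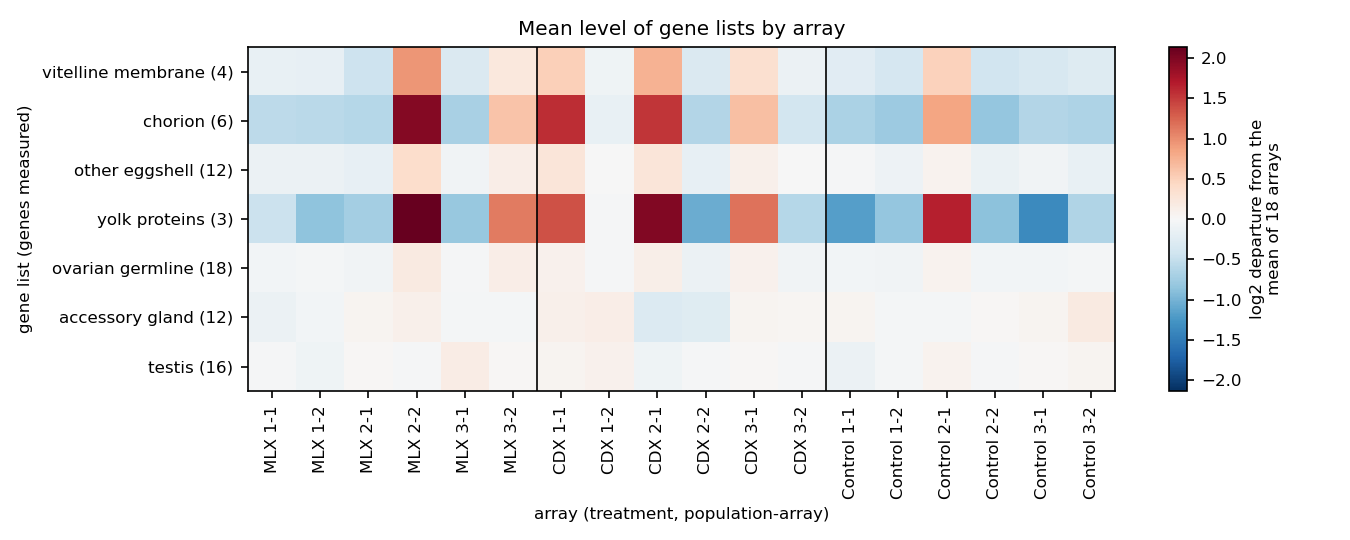
Mean log2 level of 7 gene lists in the 18 arrays, each list taken from its own mean over the arrays, with MLX, CDX and Control from left to right. The chorion and yolk rows are darkest red in MLX 2-2, CDX 2-1 and CDX 1-1 or Control 2-1, while the accessory gland and testis rows stay close to 0.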

How the data were processed

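The authors deposited log2 expression values made by RMA in the BioConductor package affy, which corrects background, normalizes quantiles and summarizes each probe set. All 18 arrays were used as deposited, grouped by the treatment and population in the labels. Of 18952 probe sets, 183 Affymetrix controls were left out of the tests, and genes were named from the platform annotation with symbols and chromosome arms from RefSeq (Release 6 plus ISO1 MT). A gene with several probe sets was represented by the one with the largest mean. The arrays' number, not a depth, limits the precision. The p-values set a difference against the spread between these arrays and populations, with a single correlation shared by all probe sets.

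The comparisons were fitted with limma 3.58.1, run in R 4.3.3, on a model with a mean per treatment. Arrays of the same population (9 in all) shared a correlation of 0.192, estimated by duplicateCorrelation, and p-values had a Benjamini-Hochberg adjustment over 18769 probe sets in each comparison. The fit was tested on simulated data. The end bias was taken over 4 control transcripts, and likeness by Pearson r with the mean departure of the 10 genes. The genes named are those 10, the 10 most alike and, for each list, those with the largest and smallest range. Other genes named, such as ndl, exu, vas and Send1, were chosen after their values were seen. The genes and lists were chosen with earlier results of these data known. The lists were other eggshell genes, yolk proteins, chorion gene amplification and follicle cell regulators, ovarian germline, female sperm storage organs, male accessory gland and testis. Alternatives were population means, independent arrays, blocks by population or array number, median centring, repeated quantile normalization, a filter to the brighter probe sets, the end bias as a covariate, each population left out, and, added after the values were seen, the 6 high arrays left out. Figures were drawn with matplotlib 3.10.9, and other values came from pandas 2.3.3 under Python 3.11.15.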

Additional observations from a re-analysis of the deposited data

Results flagged for a closer look

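In 11 of 30 groups of 6 arrays (10 genes in 3 treatments) an array lay apart from the other 5 by more than Dixon's critical value for the gap over the group's range. In values not chosen for their spread about 1 in 20 groups would be so by chance, but these genes were chosen with their variation between these arrays known, so that the count is a description and no test. Of these, 9 were Control array 2-1. It had 7.84 for Vm26Aa, 4.10 for Vm32E, 7.02 for Vm34Ca, 8.78 for Cp15, 5.92 for Cp16, 7.13 for Cp18, 7.01 for Cp19, 7.88 for Cp36 and 7.25 for Cp38. The other 2 were MLX array 2-2, with 5.06 for Vm32E and 6.85 for Cp16. No CDX array was apart in this way; 3 of the 6 CDX arrays were high. The genes share their arrays, and these are not 11 independent observations.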

How the results depend on the processing

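The number of the 10 genes called stayed at 0 in all 3 comparisons under each alternative run. With only the brighter 50% of probe sets, of the 10 genes Cp15 alone was left, and the median was then its own difference, 0.95 for CDX minus Control and -0.74 for MLX minus CDX, while early minus late had no value. Without the 6 high arrays, early minus late for CDX minus Control was -0.16 against -0.51, and r between early and late genes was 0.769 against 0.981. In the 3 populations without those arrays the median difference between arrays was 0.13 against 0.80 (0.13 against 1.35 for the chorion genes, 0.13 against 0.58 for the vitelline membrane genes). Such smaller values follow at least in part from the choice of the 6 arrays as the highest in these genes. With each population left out in turn, the median over the 10 genes lay between 0.12 and 0.50 for MLX minus Control, 0.52 and 0.85 for CDX minus Control and -0.53 and -0.13 for MLX minus CDX. For MLX minus Control it was 0.12 without MLX population 2, 0.49 without MLX population 1 and 0.50 without Control population 2, and for MLX minus CDX it was -0.13 without MLX population 1 and -0.53 without MLX population 2. Early minus late lay between -0.47 and -0.05 for MLX minus Control, -0.63 and -0.38 for CDX minus Control and 0.04 and 0.46 for MLX minus CDX. The end bias as a covariate gave 0.12 for MLX minus Control and -0.52 for MLX minus CDX. Population numbers are not known to pair the treatments (correlations of same-numbered populations from -0.14 to 0.38), and with the population number as a replicate block the counts stayed at 0 and the median at 0.29, 0.61 and -0.31. As each gene has 1 probe set, a mean over probe sets changed nothing. The causes were not tested.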
